A study of Mus musculus with 14 samples.

Results

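The Hox genes and the genes of their Meis and Pbx partner proteins were examined in 14 mouse glioblastomas, each measured on its own bead array. All platform gene symbols that name a Hox gene of clusters A to D or a Meis or Pbx gene were taken, whatever their signal. This gave 44 of 18484 named genes, with 38 Hox, 3 Meis and 3 Pbx genes on 74 probes.

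Hox proteins are homeodomain transcription factors that give cells of the body axis their position along it. Their genes lie in clusters and are active in the hindbrain and spinal cord, with low-numbered genes reaching furthest forward, whereas the normal forebrain keeps the clusters silent under Polycomb repression. Meis and Pbx proteins, members of the TALE homeodomain family, bind DNA together with Hox proteins and sharpen their choice of sites. HOXA genes are known to be active in a subset of human glioblastomas.

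The mice were of mixed background and were given tamoxifen once by mouth, at 10 mg for each 20 g of weight, when 6 to 8 weeks old. In the 7 Type 1 mice a tamoxifen-dependent Cre (CreERT2) was driven by the Nestin promoter, which is active in neural stem and progenitor cells. In the 7 Type 2 mice the Cre (CreERTM) was driven by the NG2 promoter, which is active in oligodendrocyte precursors and also in pericytes. The floxed targets shared by both types included Trp53 on both alleles, Nf1 on 1 allele and a tdTomato reporter, so no group was without the deletions. Primary tumours were taken when the mice had become symptomatic. Batch 1 held 3 Type 1 and 4 Type 2 tumours, and batch 2 held 4 Type 1 and 3 Type 2 tumours. The site of each tumour in the nervous system is not given in the labels, and replicate numbers, set in accession order, only name a tumour.

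Levels are normalized log2 signals. A gene was counted as detected on an array when the scanner's detection p of a probe was under 0.05, a rule that by its construction passes about 5% of probes with no target RNA. Undetected probes had a median of 4.68 to 4.70 on each array, and the dimmest detected probe lay at 5.32 to 5.54. Detection covered 19299 to 20868 probes per array, so the arrays were of like sensitivity, and the number of arrays limits the precision. No pair of arrays correlated above 0.962 over all probes, so no tumour appeared to have been deposited more than once. Probes differ in their response, so levels were compared between tumours and not between genes.

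Hox genes were detected in every tumour, and HoxA genes were the most numerous in all tumours but Type 2 replicate 6, where HoxA and HoxC had 4 each. Hoxa5 and Hoxa7 were detected in 14 of 14 tumours, at up to 11.32 and 11.76. Of the 38 Hox genes, 20 (52.6%) were detected on at least 1 array, against 70.3% of all named genes, and 15 (39.5%) on at least 3 arrays, against 63.9%. Hox genes detected on all arrays numbered 3, whereas 47% of all named genes were detected on all arrays. The remaining 18 Hox genes were detected in no tumour.

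Type 1 tumours had between 6 and 13 detected Hox genes, with a median of 10. Type 2 tumours had between 4 and 11, with a median of 7. At a stricter detection p of 0.01, the medians were 8 and 5. The lowest counts were 4 in Type 2 replicate 7 and 5 in Type 2 replicate 5, and the highest was 13 in Type 1 replicate 1, so the types overlapped broadly. A count over chosen genes was not tested.

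**Figure D1:**
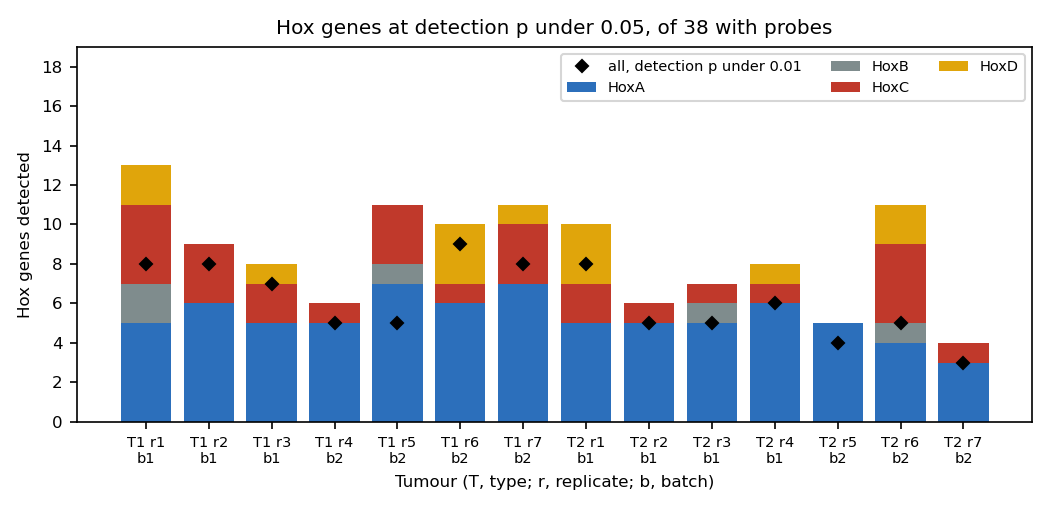
Number of Hox genes detected per tumour (y axis, of 38) by tumour (x axis), stacked by cluster. Diamonds mark the count at a detection p under 0.01. HoxA genes make up the largest layer in all bars but that of Type 2 replicate 6, where HoxC ties with it, and the bars range from 4 to 13.

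**Figure D2:**
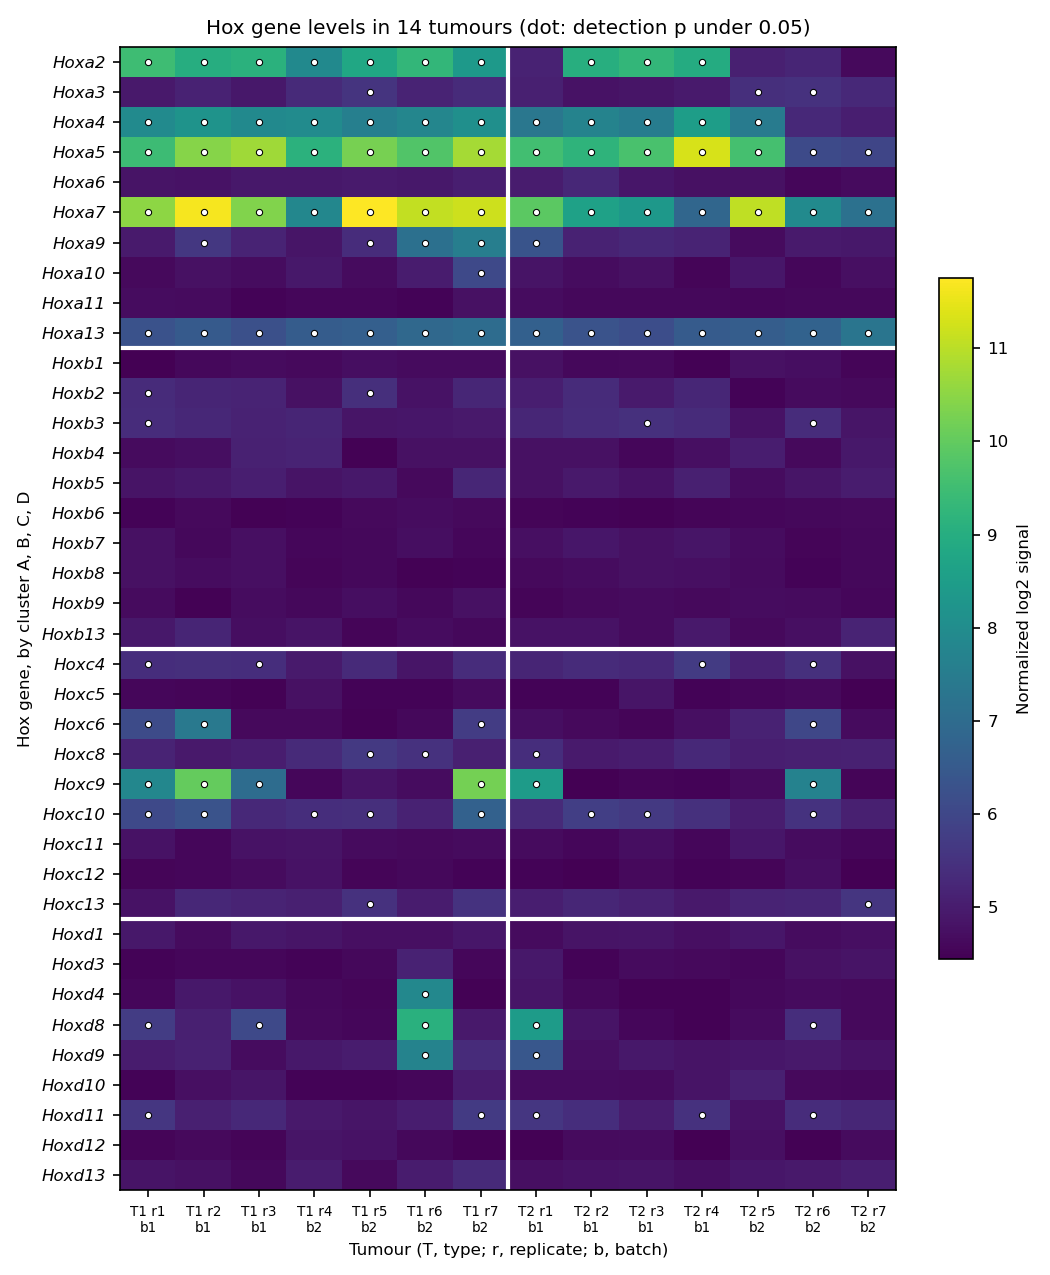
Normalized log2 signal (colour) of the 38 Hox genes (rows, by cluster) in the 14 tumours (columns, Type 1 left of the white line). A dot marks detection. Hoxa2, Hoxa4, Hoxa5 and Hoxa7 form the bright rows, Hoxc9 and Hoxd8 are bright in some tumours, and the HoxB block stays at or below 5.47.

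The clusters differed in how much of them was detected. In HoxA, 7 of 10 genes were detected on at least 3 arrays, namely Hoxa2, Hoxa3, Hoxa4, Hoxa5, Hoxa7, Hoxa9 and Hoxa13. In HoxC it was 5 of 9 genes and in HoxD 2 of 9. In HoxB only Hoxb3 reached this, on 3 arrays, and no HoxB probe exceeded 5.47 on any array, which is within the range of the dimmest detected signals. At a detection p under 0.01, Hoxa3, Hoxb3, Hoxc4, Hoxc8 and Hoxd11 no longer had a probe that reached 3 arrays. Within the clusters, Hoxa6, between Hoxa5 and Hoxa7, was detected in no tumour, and neither was Hoxc5, between Hoxc4 and Hoxc6. Hoxa6 and Hoxc5 had 1 probe each, so a silent gene and a poor probe cannot be told apart. Hoxc4 itself reached no more than 5.72. Detected on none were also Hoxa11, Hoxc11, Hoxc12, Hoxd1, Hoxd3, Hoxd10, Hoxd12, Hoxd13 and the 8 HoxB genes other than Hoxb2 and Hoxb3. Apart from Hoxb1, Hoxb7 and Hoxc11, these genes had 1 probe each as well, so the same limit holds for them.

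Hoxa2, which patterns the hindbrain and its neural crest, was the only Hox gene called between the types. It lies on chromosome 6 at 52162417 to 52164831 (GRCm38.p6), at the low-numbered end of the HoxA genes analysed here. The 250 bases before its annotated start are shown with those of Hoxa5 and Hoxa7, since these 3 genes had the largest type differences of the HoxA cluster in the fit over both batches. The sequences are from RefSeq, build GRCm38.p6, and all are on the minus strand, printed 5′ to 3′. Capitals mark matches to TGATTNAT, a motif of Hox and Pbx proteins bound together, or to TGACAG, a motif of Meis proteins, searched on both strands. The windows are chr6:52164832-52165081 for Hoxa2, chr6:52204588-52204837 for Hoxa5 and chr6:52218574-52218823 for Hoxa7.
Hoxa2: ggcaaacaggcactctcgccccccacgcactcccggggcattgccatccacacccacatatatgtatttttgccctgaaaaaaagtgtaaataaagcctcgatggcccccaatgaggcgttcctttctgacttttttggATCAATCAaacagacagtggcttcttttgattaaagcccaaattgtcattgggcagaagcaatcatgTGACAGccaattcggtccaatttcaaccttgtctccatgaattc
Hoxa5: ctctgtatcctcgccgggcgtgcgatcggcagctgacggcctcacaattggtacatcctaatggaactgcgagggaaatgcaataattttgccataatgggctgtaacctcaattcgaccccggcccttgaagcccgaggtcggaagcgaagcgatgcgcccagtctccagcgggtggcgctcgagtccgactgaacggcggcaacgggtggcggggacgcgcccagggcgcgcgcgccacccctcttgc
Hoxa7: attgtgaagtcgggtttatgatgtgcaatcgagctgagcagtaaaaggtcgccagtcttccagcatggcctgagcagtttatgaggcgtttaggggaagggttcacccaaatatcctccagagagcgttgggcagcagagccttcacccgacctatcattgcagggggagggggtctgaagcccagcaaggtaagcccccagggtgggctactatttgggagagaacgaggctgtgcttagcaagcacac
The Hoxa2 window holds both motifs, TGATTNAT in reverse orientation 111 bases before the start and TGACAG in forward orientation 44 bases before it. The windows of Hoxa5 and Hoxa7 hold neither. Over all entries of the table, each before the start that the table uses, TGATTNAT occurs in 928 of 32851 windows (2.82%) and TGACAG in 5210 (15.9%). The table holds an entry for 27 of the 44 genes, with 29 windows. Among these, TGATTNAT was found for Hoxa2 and Hoxd11, and TGACAG for Hoxa2 and Hoxa3. A match of letters is a description and not a binding site.

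Hoxa2 was detected in 7 of 7 Type 1 tumours and in 3 of 7 Type 2 tumours. Type 1 replicates 1 to 7 had levels of 9.47, 9.01, 9.12, 7.92, 8.79, 9.29 and 8.41. Type 2 replicates 1 to 7 had levels of 5.13, 9.04, 9.29, 8.95, 5.09, 5.20 and 4.61. Type 2 thus fell apart into 3 tumours as high as Type 1, all in batch 1, and 4 tumours at background, with nothing between. The type means were 8.86 ± 0.54 (SD, n = 7) and 6.76 ± 2.19 (SD, n = 7). The fitted difference was 2.37 ± 0.62 (SE) on the log2 scale, with a 95% confidence interval of 1.04 to 3.70 and a limma adjusted p of 0.0442. Its second probe differed by 2.32. In bulk tissue, fewer cells of a type and less RNA per cell cannot be told apart.

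This call was close to its threshold. In batch 1 alone the Hoxa2 difference was 1.10, with a limma adjusted p of 0.559. In batch 2 alone it was 3.63, with a limma adjusted p of 0.0141, and no other of the 11786 genes tested had a larger difference toward Type 1 there. As all 3 Type 2 tumours of batch 2 were undetected, the mean of the 4 Type 1 tumours was at least 9.48-fold higher. That bound sets their mean of 8.60 against 5.36, the mean of the dimmest detected signals, while the undetected mean itself was 4.97. Leaving out 1 tumour at a time ended the call for 9 of the 14 (Type 1 replicates 1, 2, 4, 5, 6 and 7 and Type 2 replicates 5, 6 and 7), with adjusted p between 0.0307 and 0.0926 over all 14.

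Hoxa4 and Hoxa5, which act in the cervical and upper thoracic region, had 2 low tumours in common, Type 2 replicates 6 and 7 of batch 2. Hoxa4 ranged from 7.59 to 8.19 (median 7.94) in Type 1 and from 5.05 to 8.52 (median 7.48) in Type 2, where those 2 tumours, at 5.28 and 5.05, were undetected. Hoxa5 ranged from 9.14 to 10.77 (median 10.26) in Type 1. In Type 2 it ranged from 5.97 to 11.32 (median 9.54), with replicates 6 and 7 at 6.09 and 5.97 and the next tumour at 9.19. The highest Hoxa4 and Hoxa5 levels of all 14 tumours were both in Type 2 replicate 4. The differences of 1.08 ± 0.39 (SE) for Hoxa4 and 1.52 ± 0.62 (SE) for Hoxa5 did not pass the test, with limma adjusted p of 0.124 and 0.173. They were 0.24 and 0.28 in batch 1 and 1.92 and 2.76 in batch 2.

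The detection of Hoxa2 was nested in that of Hoxa4: all 10 tumours with Hoxa2 also had Hoxa4, which was detected in 12. All 4 of Hoxa2, Hoxa4, Hoxa5 and Hoxa7 were detected in every Type 1 tumour. Among Type 2 tumours, replicates 2, 3 and 4 had all 4 genes, replicates 1 and 5 had 3, and replicates 6 and 7 had 2.

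Hoxa7, a trunk-patterning gene, was detected in all 14 tumours and varied over a wide range in both types. Type 1 ranged from 7.83 to 11.76 (median 11.08), and Type 2 from 6.87 to 11.07 (median 8.34). Of the 7 Type 1 tumours, 6 lay at 10.37 or higher, with replicate 4 alone at 7.83, and in Type 2 only replicate 5 lay as high, at 11.07. The difference was 2.08 ± 0.70 (SE), which did not pass the test (limma adjusted p = 0.102), and stood at 2.42 in batch 1 and 1.75 in batch 2. It passed the test without Type 1 replicate 4 (2.52, limma adjusted p = 0.0353) or without Type 2 replicate 5 (2.64, 0.0412).

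The high-numbered HoxA genes were found in fewer tumours. Hoxa9, known as an oncogene of leukaemia that works together with Meis1, was detected in 4 of 7 Type 1 tumours and 1 of 7 Type 2 tumours. It reached 7.58 in Type 1 replicate 7, 7.13 in Type 1 replicate 6 and 6.33 in Type 2 replicate 1, while the other 11 tumours lay between 4.65 and 5.62. Its difference of 0.59 ± 0.43 (SE) did not pass the test (limma adjusted p = 0.464), and was -0.21 in batch 1 and 1.39 in batch 2. Hoxa10 was detected in a single tumour, Type 1 replicate 7, at 6.05. Its level, and those of Hoxd4 and Hoxd9, were chosen for printing after their values were seen.

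Hoxa13, which patterns the digits and the hind end of the embryo, was detected in all 14 tumours by 1 of its 3 probes, at 6.17 to 7.28. Its other probes were detected in 0 and 1 of 14 tumours, so detection of this gene rests on a single probe. The types differed by -0.08 (limma adjusted p = 0.796). Hoxa3, a gene of the hindbrain and pharyngeal arches, ranged from 4.91 to 5.55 (median 5.18) in Type 1 and from 4.79 to 5.47 (median 5.07) in Type 2, a difference of 0.01 (0.967). Both types thus overlapped for these genes.

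In the HoxC cluster, Hoxc9, which specifies thoracic segments, was either high or at background. It was detected in 4 Type 1 tumours, replicates 1, 2, 3 and 7, at 7.82, 10.02, 7.04 and 10.22. It was also detected in 2 Type 2 tumours, replicates 1 and 6, at 8.46 and 7.68. The other 8 tumours lay between 4.46 and 4.81. The difference of 1.62 ± 1.01 (SE) did not pass the test (limma adjusted p = 0.380), with 2.80 in batch 1 and 0.44 in batch 2. Both types thus held tumours with and without Hoxc9.

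Hoxc6 followed part of that pattern. It was detected in Type 1 replicates 1, 2 and 7, at 6.11, 7.40 and 5.73, and in Type 2 replicate 6, at 6.00, and these 4 tumours were all among the 6 with Hoxc9. The types differed by 0.49 ± 0.43 (SE; limma adjusted p = 0.550), with 1.39 in batch 1 and -0.41 in batch 2. Hoxc10, a lumbar gene, was detected in 5 Type 1 and 3 Type 2 tumours. It ranged from 5.13 to 6.71 (median 5.42) in Type 1 and from 5.04 to 5.78 (median 5.46) in Type 2, a difference of 0.39 ± 0.24 (SE; 0.371). Its 3 highest tumours, Type 1 replicates 7, 2 and 1 at 6.71, 6.32 and 6.04, also had Hoxc6 and Hoxc9.

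Hoxc4 and Hoxc8 stayed close to the detection limit. Hoxc4 ranged from 4.84 to 5.42 (median 5.37) in Type 1 and from 4.78 to 5.72 (median 5.27) in Type 2, a difference of 0.01. Hoxc8 ranged from 4.93 to 5.66 (median 5.17) and from 4.97 to 5.39 (median 5.07), a difference of 0.09. Neither passed the test, with limma adjusted p of 0.980 and 0.767. Hoxc13 was detected in 1 tumour of each type.

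HoxD genes were high in just 2 tumours. Hoxd8 was at 9.09 in Type 1 replicate 6 and at 8.44 in Type 2 replicate 1, and it was detected at 6.05, 5.74 and 5.40 in Type 1 replicates 3 and 1 and Type 2 replicate 6. The other 9 tumours lay at 5.09 or lower. The same 2 tumours were the only ones with Hoxd9, at 7.71 and 6.42, and Type 1 replicate 6 alone had Hoxd4, at 7.86. Since 1 such tumour belonged to each type, the Hoxd8 difference was 0.47 ± 0.74 (SE; limma adjusted p = 0.764), with 0.04 in batch 1 and 0.91 in batch 2.

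Hoxd11 ranged from 4.87 to 5.67 (median 5.07) in Type 1 and from 4.79 to 5.58 (median 5.37) in Type 2, a difference of -0.02 (limma adjusted p = 0.961). In HoxB, Hoxb3 ranged from 4.85 to 5.37 (median 5.14) in Type 1 and from 4.81 to 5.47 (median 5.32) in Type 2, a difference of -0.07 (0.812). Hoxb2, which with Hoxa2 belongs to the paralogue group of the anterior hindbrain, was detected in 2 Type 1 tumours and reached 5.43. Its paralogue Hoxa2 was detected in 10 tumours. The 1 probe of Hoxb2 did not rise above the range of the dimmest detected signals, so a low gene and a poor probe cannot be told apart.

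**Figure D3:**
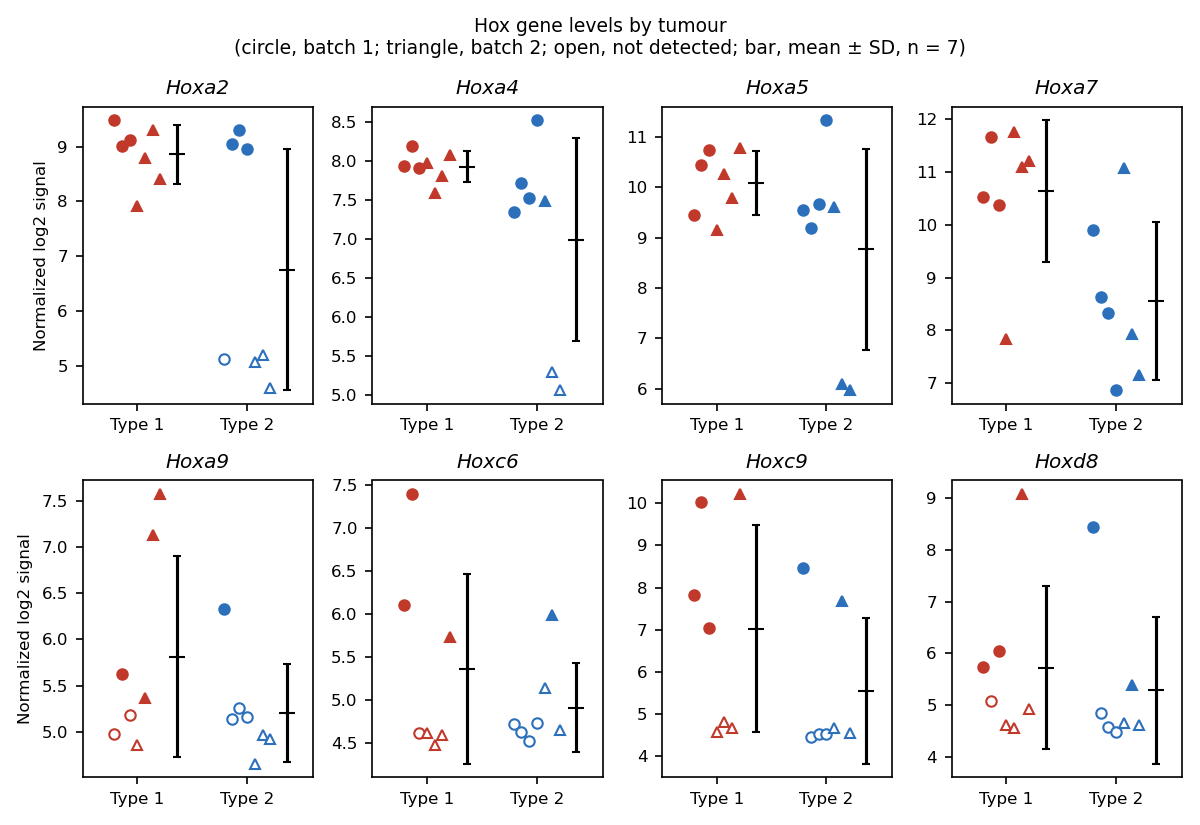
Normalized log2 signal (y axis, its own range in each panel) of 8 Hox genes in Type 1 and Type 2 tumours. Each point is a tumour, open where undetected, circles for batch 1 and triangles for batch 2, with bars for the mean ± SD of 7 tumours. The 4 low Type 2 points of Hoxa2, 3 of them in batch 2, and the isolated high points of Hoxc9 and Hoxd8 stand out.

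Among the cofactors, Meis1 was higher in all Type 1 tumours than in any Type 2 tumour. It ranged from 10.42 to 12.55 (median 10.91) in Type 1 and from 8.61 to 9.83 (median 9.23) in Type 2, so the groups did not overlap. The means were 11.07 ± 0.73 (SD, n = 7) and 9.13 ± 0.46 (SD, n = 7). The difference was 2.02 ± 0.28 (SE), or 4.04-fold, with a 95% confidence interval of 1.42 to 2.61 and a limma adjusted p of 0.00318. It was 1.83 in batch 1 alone, where it was not called (limma adjusted p = 0.100), and 2.20 in batch 2 alone (0.0141). A second Meis1 probe was detected in 7 Type 1 tumours and 1 Type 2 tumour and differed by 2.35. The call held when each of the 14 tumours was left out in turn, with differences between 1.76 and 2.23. Meis1 was the 1 tested member (4.76% of 21) whose types did not overlap, against 1.23% of all genes tested.

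Meis2, which is active in forebrain and olfactory bulb progenitors, ranged from 10.03 to 11.66 (median 10.74) in Type 1 and from 9.17 to 10.84 (median 10.51) in Type 2. The type difference of 0.56 ± 0.22 (SE) did not pass the test (limma adjusted p = 0.152). Batch 2 was higher than batch 1 by 1.03 (limma adjusted p = 0.00825), a shift larger than that between types. Meis3, a hindbrain partner of Hox proteins known from frog embryos, ranged from 6.41 to 7.01 (median 6.85) in Type 1 and from 5.88 to 7.01 (median 6.27) in Type 2. It differed by 0.31 ± 0.14 (SE; 0.208) between types and by 0.57 (0.0165) between batches.

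None of the Pbx genes passed the test between types. Pbx2 ranged from 6.57 to 7.38 (median 7.0) in Type 1 and from 6.47 to 7.65 (median 7.0) in Type 2, a difference of -0.05 (limma adjusted p = 0.908). Pbx3 ranged from 6.15 to 6.78 (median 6.57) and from 5.25 to 8.11 (median 6.59), a difference of 0.02 (0.977). The 3 highest Pbx3 levels of all tumours were in Type 2 tumours of batch 1, and the 3 lowest were the Type 2 tumours of batch 2, so that the difference was -0.75 in batch 1 and 0.80 in batch 2. Pbx4 ranged from 6.57 to 7.94 (median 7.35) and from 5.84 to 7.76 (median 6.95), a difference of 0.38 (0.480), with 0.98 in batch 1 and -0.22 in batch 2. The kept probes disagreed in sign for all 3 Pbx genes, and for no other of the 8 tested members with more than 1 kept probe, so the direction of the Pbx genes depends on the probe.

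**Figure D4:**
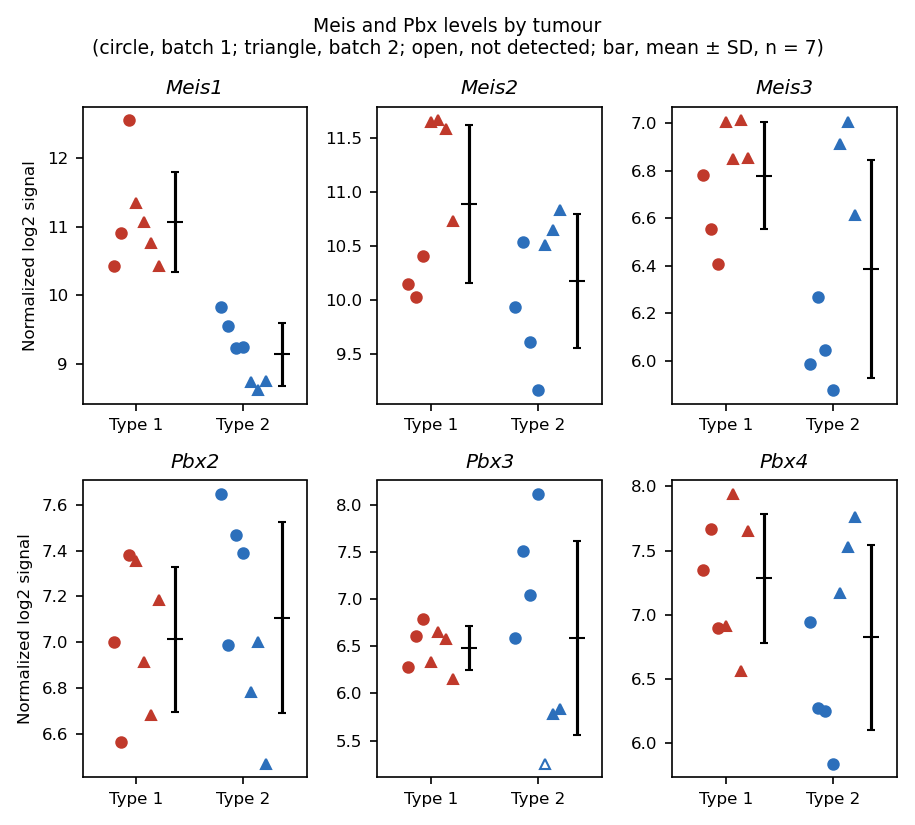
Normalized log2 signal (y axis, its own range in each panel) of the 3 Meis and 3 Pbx genes in Type 1 and Type 2 tumours. Symbols are as in the plot of Hox gene levels by tumour. All Type 1 points of Meis1, at 10.42 or higher, lie above all Type 2 points, at 9.83 or lower, and the other panels overlap.

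Over the 21 members that could be tested, 2 were called between types, Meis1 and Hoxa2, both higher in Type 1. That is 9.52% of them, against 4.64% of all 11786 genes called in either direction and 2.32% called higher in Type 1. At an unadjusted p under 0.05, 7 of 21 (33.3%) were higher in Type 1, namely Hoxa2, Hoxa4, Hoxa5, Hoxa7, Meis1, Meis2 and Meis3, against 10.8% of all genes. The median difference was 0.39 over the tested members and -0.01 over all genes. Of the members, 17 of 21 (81%) were positive, against 49.4% of all genes. By group, the median was 1.08 for 7 HoxA genes, 0.39 for 5 HoxC genes, 0.56 for the Meis genes and 0.02 for the Pbx genes. A gene that passed the detection filter through 1 type only had to differ, so these counts and medians describe the tested genes and not all 44.

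**Figure D5:**
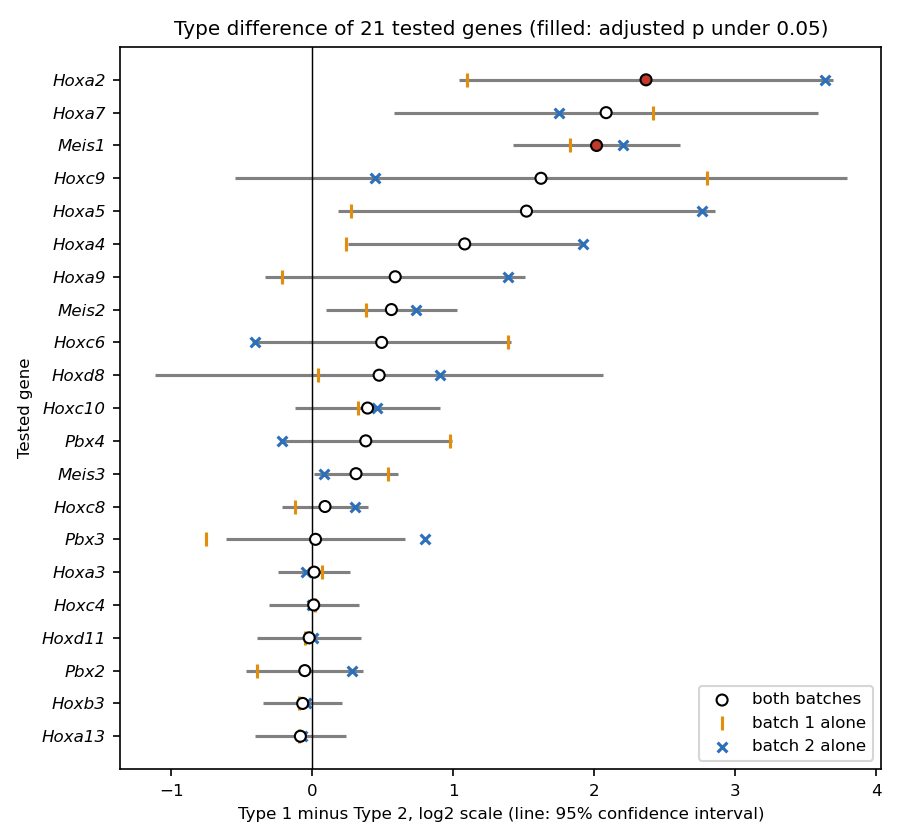
Type 1 minus Type 2 difference on the log2 scale (x axis) of the 21 tested genes (y axis), with its 95% confidence interval and the differences within batch 1 and batch 2. Filled circles mark Hoxa2 and Meis1, the genes called at an adjusted p under 0.05. The batch marks lie at least 1 log2 unit apart for Hoxa2, Hoxa4, Hoxa5, Hoxa9, Hoxc6, Hoxc9, Pbx3 and Pbx4, and 0.37 apart for Meis1.

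The batches did not give the same picture for all genes. In batch 1 alone 0 of 21 members were called (1.41% of all genes), and in batch 2 alone the 2 called were again Hoxa2 and Meis1 (9.52% against 1.04%). The sign was the same in both batches for 12 of 21 members, and the share over all genes was not computed. Some sign changes were between values near 0, as for Hoxa3 (0.07 in batch 1 and -0.04 in batch 2) and Hoxd11 (-0.05 and 0.004). Others were larger, as for Pbx3 (-0.75 and 0.80). The type by batch interaction, which tests whether the type difference itself changed between batches, was called for 0 of 21 members and 0% of all genes. With chip as a random block it was called for 8 members, Hoxa2, Hoxa4, Hoxa5, Hoxa9, Hoxc6, Pbx2, Pbx3 and Pbx4, and for 22.1% of all genes. At an unadjusted p under 0.05 it took in 6 of 21 (28.6%), against 16.4% of all genes. These were Hoxa2, Hoxa4 and Hoxa5, with larger differences in batch 2 by 2.54, 1.68 and 2.49, Pbx3 by 1.55, and Hoxc6 and Pbx4 with changes of -1.80 and -1.19. Between batches, Meis2, Meis3 and Hoxa3 were called, 14.3% of the tested members against 10.7% of all genes. The arrays lay on 5 chips that each held 1 type, so chip and type cannot be told apart. Each chip also lay within 1 batch, and only the Type 1 tumours of batch 1 were spread over more than 1 chip. The interaction is thus a comparison between chips. Its calls with chip as a random block cannot show whether the type difference changed between batches.

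Genes known to control the Hox clusters, and other partners and relatives of Hox proteins, were examined as 7 lists. Of 106 gene symbols listed, where an older and a newer name of a gene count separately, 76 were tested. Against 4.64% of all genes called, 1 of these 76 was called. This was Rbbp4, a histone-binding subunit of Polycomb repressive complex 2 that also sits in other chromatin complexes, and it was lower in Type 1 by -0.93 ± 0.25 (SE; limma adjusted p = 0.0481). No pathway gene was called without Type 1 replicate 1, 2, 3, 5 or 6 or without Type 2 replicate 3, 5, 6 or 7, so this call depended on single tumours. The other 21 Polycomb genes tested were not called. Ezh2, the methyltransferase of that complex, differed by 0.20 (0.659), and the largest difference among the others was 0.65 for Pcgf6. Of 12 genes of the activating Trithorax and MLL complexes, none was called, and Men1 (0.65) and Mllt1 (0.51) differed most. The list medians were 0.07 and 0.11.

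Retinoic acid, made by aldehyde dehydrogenases and bound by nuclear receptors, switches on low-numbered Hox genes in the hindbrain. None of the 11 pathway genes tested was called. The receptor genes Rarb (-1.58, limma adjusted p = 0.0804) and Rxrg (-1.37, 0.135) differed most, both toward Type 2, and the list median was -0.26. Among 15 anterior-posterior and upstream genes none was called, with Otx1, a forebrain and midbrain gene, at 1.16 (0.378) and Irx3, a gene of the caudal forebrain and spinal cord, at -1.08 (0.131). Mkx at -0.82 and again Irx3 led the 9 other TALE genes, Dlx1 at 1.54 (0.133) and Meox1 at -0.90 the 7 ParaHox and neighbouring genes, and Zfp703 at 0.24 and Crebbp at -0.08 the 4 further Hox partners, with no call. The medians of these lists were 0.27, -0.01, 0.03 and 0.02.

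Genes of other cell types also differed between the types. Schwann cell and neural crest genes summed to a linear signal of 3754 to 14049 in Type 1 and 16088 to 29837 in Type 2. Of these genes, 4 of 6 were called higher in Type 2, namely Dct, Pmel, Sox10 and Ngfr. Sox10, with means of 12.23 in Type 1 and 13.96 in Type 2, was the brightest and weighed most in the sum. Pmp2 (-0.50) and Pmp22 (-0.66) were not called, and Mitf and Foxd3 were undetected in all tumours. The presence of Schwann or neural crest cells was not tested. Of the endothelial and mural genes 3 of 10 (Vwf, Tie1, Rgs5) were called higher in Type 2, with sums of 2180 to 5907 in Type 1 and 5597 to 10073 in Type 2. Of the fibroblast genes 3 of 9 were called the same way (Col1a1, Lum, Prrx1), with 3431 to 10156 against 5607 to 12416. The oligodendrocyte genes Cnp and Cldn11 (2 of 6; 14710 to 23915 against 20456 to 50897) and the ependymal gene Dnah11 (1 of 3; 601 to 1195 against 891 to 2227) were also higher in Type 2. The median differences of these 2 lists were -0.15 and 0.06. Their sums had medians of 19938 in Type 1 against 31591 in Type 2 for oligodendrocyte genes and 987 against 1211 for ependymal genes. Uncalled were Mbp at -0.46 and, toward Type 1, Mobp (1.21), Mog (0.29), Mag (0.16), Rsph1 (0.94) and Foxj1 (0.06). In Type 1, the astrocyte genes Aqp4 and Slc1a2 were higher and S100b lower (7 measured; 25702 to 72449 against 9202 to 29136), and the neuronal gene Rbfox3 was higher (1 of 6; 3318 to 11367 against 1104 to 10490). Microglia and macrophage, T and NK cell, B cell, and blood progenitor genes gave no call among 6, 2, 1 and 4 tested. The part of these cell types in the Meis1 and Hoxa2 differences was not tested.

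Since Hox genes mark hindbrain and spinal cord, regional genes were set beside them. No spinal cord and hindbrain neuron gene of 8 tested was called. Their sums were 469 to 2254 in Type 1 and 423 to 1270 in Type 2. Of 14 on the array, the motor neuron gene Mnx1, Slc6a5 and Pax8 were undetected in all tumours. Isl1 (1.24) and Chat (1.02) differed most toward Type 1 and Tlx3 (-0.32) most toward Type 2, with a list median of 0.32. Tph2 had means of 8.13 in Type 1 and 8.43 in Type 2. The uncalled En1, En2 and Gbx2 had means of 10.51, 10.62 and 9.75 in Type 1 and 9.83, 10.07 and 9.32 in Type 2. Of 9 forebrain patterning genes on the array, 6 were undetected in all tumours and 2 were tested. Lhx2, a cortical progenitor gene, was higher in Type 1 by 0.92 (limma adjusted p = 0.0205), with means of 5.89 and 4.99. Its Type 2 mean lay below the dimmest detected signals of 5.32 to 5.54, so the size of the difference is uncertain. Nkx2-1 differed by 0.22 and was not called (limma adjusted p = 0.549). Choroid plexus genes, whose home is the ventricles, summed to 28641 in Type 1 replicate 1 and 14623 in Type 2 replicate 5, against at most 2453 elsewhere. Without these tumours Meis1 kept its call and Hoxa2 did not, with a difference of 2.33 and a limma adjusted p of 0.141. From 5 listed skeletal muscle genes only Acta1 was tested, while Myh1, Ckm and Myod1 were undetected in all tumours. Acta1 had a linear signal of 1251 in Type 2 replicate 7, against at most 116 elsewhere, and was not called. That tumour also had the fewest detected Hox genes, and a single gene does not show muscle tissue. The part of these tissues in the Hox gene levels was not tested.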

How the data were processed

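Per the file headers, the deposited table gave for 45281 probes on each of 14 arrays the mean bead intensity, which the authors had not normalized, with its detection p-value. The submitters' processing notes name BeadStudio with its version not given in the sources used here. The authors also deposited their own log2 values of 38502 probes, whose method, scale and centring are unknown and which served as an alternative only.

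Intensities were background-corrected from the detection p-values (normexp, offset 16), quantile-normalized and log2-transformed by the neqc function (limma 3.58.1, R 4.3.3). The platform annotation named 1 gene for 32034 probes. Probes with a detection p under 0.05 on at least 3 arrays were kept, and the kept probe with the highest mean stood for its gene, which gave 11786 genes. Type 1 minus Type 2 was fitted with batch in the model (lmFit, eBayes), and a call needed a Benjamini-Hochberg adjusted p under 0.05 over all genes. The batch coefficient and the type by batch interaction were tested likewise. A fold against a group undetected on every array is a bound against, per array, the higher of the dimmest detected signal and the gene's own.

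The members and lists were chosen with earlier results of these data known. All tested members were named, with levels by rule for called genes, the 8 largest differences and Hox genes detected on 3 or more arrays. From other lists the text names called genes and the 2 largest differences. Ezh2, Mnx1 and the levels of Hoxa10, Hoxb2, Hoxd4, Hoxd9, Meis3 and the Pbx genes fall outside this rule and were chosen after the values were seen. So were the named skeletal muscle genes and the uncalled oligodendrocyte, ependymal, Schwann cell and neural crest genes. The named spinal cord and hindbrain neuron genes, En1, En2, Gbx2 and Nkx2-1 were chosen in the same way. Promoters came from the RefSeq table. Nothing in the labels ties tumours to shared animals, so that p-values reflect how much these tumours varied. In data simulated for the type comparison over 11786 genes, 51 of 100 genes with a log2 difference of 1 were called. With a difference of 2, 88 of 100 were called, and 8 of 11586 unchanged genes were called. These shares need not hold for Hox genes that varied widely within a type. The SE was 0.62 for Hoxa2 and Hoxa5, 0.70 for Hoxa7 and 1.01 for Hoxc9. A Hox gene that was not called is thus not shown to be unchanged. Alternatives changed the model (no batch term, a random block for chip, single batches, array weights), the values (no background correction, a higher offset, median scaling, the authors' table), the probes taken, the detection filter, or left out 1 tumour at a time. A setting without Type 1 replicate 1 and Type 2 replicate 5, both high in choroid plexus genes, was added after seeing the data. Some design details are not reported here.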

Additional observations from a re-analysis of the deposited data

Results flagged for a closer look

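In 6 of 42 groups looked at, 1 tumour of 7 lay apart from the others of its type by Dixon's criterion, and chance alone gives about 1 in 20 groups, or 2.1 of 42. Hoxa7 was lowest in Type 1 replicate 4, at 7.83 on the log2 scale, with the next tumour at 10.37. Meis1 was highest in Type 1 replicate 3, at 12.55, with the next at 11.34. Hoxd8 was highest in Type 1 replicate 6, at 9.09 with the next at 6.05, and in Type 2 replicate 1, at 8.44 with the next at 5.40. Hoxa9 was highest in Type 2 replicate 1 as well, at 6.33 with the next at 5.26. Hoxc6 was highest in Type 2 replicate 6, at 6.00 with the next at 5.14, both close to the dimmest detected signals. In Type 2 replicate 1, Hoxa9, Hoxc9, Hoxd8 and Hoxd9 were all detected, and Hoxa2 was not.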

How the results depend on the processing

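Of the called genes, Meis1 kept its call in 14 of 15 other settings and lost it in batch 1 alone. Hoxa2 kept it in 6 of 15, with adjusted p from 0.0141 to 0.559 and differences from 1.10 to 3.63. The number of members called was 1 with no batch term, with chip as a random block, with no background correction, with an offset of 50, with median scaling, with the authors' values, with no detection filter and with the choroid-high tumours (Type 1 replicate 1 and Type 2 replicate 5) left out. It was 0 in batch 1 alone, and 1 to 2 when 1 tumour was left out. In those of these settings with 1 call, Hoxa2 had adjusted p of 0.136, 0.0511, 0.0652, 0.0510, 0.0591, 0.0525, 0.0856 and 0.141. The median difference of members was 0.0402 with no filter. Pathway genes called were 0 with no batch term, chip as a block, batch 1 alone, median scaling, no filter, detection on at least 1 array, or without the choroid-high tumours, 2 with array weights, and 0 to 2 with 1 tumour left out. The interaction called 8 members with chip as a block, where 22.1% of all genes were called and chip and interaction cannot be told apart. It called 0 to 1 with 1 tumour left out, the 1 being Hoxa2 without Type 2 replicate 1. Members called between batches were 7 with median scaling, 0 with the authors' values, 1 with probes averaged, and 2 to 4 with 1 tumour left out. The causes were not tested.

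Signs turned only for differences that were not called. Pbx3 was -0.11 with no batch term, -0.75 in batch 1, -0.0588 with no background correction, -0.0403 with an offset of 50, -0.0764 with median scaling, -0.0551 with the authors' values, -0.11 with probes averaged and -0.00017 without the choroid-high tumours. Hoxc4 was -0.0284 with no batch term and -0.0011 in batch 2. In batch 1 alone Hoxa9 was -0.21 and Hoxc8 -0.12. In batch 2 alone Hoxa3 was -0.0417, Hoxc6 -0.41, Hoxd11 0.0042, Pbx2 0.28 and Pbx4 -0.22. With 1 tumour left out, the ranges that crossed 0 were -0.0241 to 0.0427 for Hoxa3, -0.109 to 0.0355 for Hoxd11, -0.157 to 0.0799 for Pbx2, -0.16 to 0.20 for Pbx3, -0.0646 to 0.0848 for Hoxc4, -0.0667 to 0.948 for Hoxd8, -0.12 to 0.0088 for Hoxb3 and -0.15 to 0.0051 for Hoxa13. The medians of Hox genes detected per tumour changed by less than the spread between tumours in all settings run. No paired analysis was run because nothing in the labels pairs a Type 1 tumour with a Type 2 tumour. Signals near background limit what can be said of HoxB, Hoxa3, Hoxc4, Hoxc8 and Hoxd11.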
